A study of Arabidopsis thaliana with 18 samples.

Results

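AT4G34950 and AT2G16660 are a pair of related Arabidopsis thaliana genes whose products belong to the nodulin-like branch of the major facilitator superfamily. They were taken by locus from the platform annotation, as 2 of the 13286 genes that a probe set of 1 gene names. Probe set 253215_at stands for AT4G34950 and 265414_at for AT2G16660. No second probe set of 1 gene is listed for either locus, so the rule of taking the brightest had no choice to make. The pair was chosen by measured values, with earlier results of these arrays known: both genes were lower in canopy petioles and AT4G34950 was also lower under the combined light treatment. Values of these contrasts, and all values of AT4G34950 against control light, are therefore given as description with no test.

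Major facilitator proteins are membrane carriers that move small solutes such as sugars, ions and metabolites across a membrane, driven by the gradient of the solute or of protons. The nodulin-like branch is named after proteins of legume root nodules. The soybean member GmN70 and its Lotus japonicus counterpart LjN70 are anion transporters with a preference for nitrate. What AT4G34950 and AT2G16660 carry is not given in the sources used here. Petioles, the leaf stalks measured here, elongate when neighbours shade a rosette, a response in which phytochromes sense the ratio of red to far-red light (R:FR) and cryptochromes sense blue light.

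All plants were of accession Col-0, and the 18 ATH1-type arrays fell into 6 groups of 3. Canopy plants stood at 2066 plants per m2 and single plants stood apart. Both were harvested at 37 d in control light, and each of their replicates pooled petioles of 4 plants. The other groups were single plants of 29 d, harvested 24 h after the start of low blue and low R:FR together (the combined treatment), low blue light, low R:FR or control light. The depth of the light treatments is not given in the sources used here, nor whether the light replicates came from separate plants, so p-values measure the spread between these samples, which may be technical. The combined, low blue and low R:FR comparisons share the same 3 control light arrays.

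The median log2 value of an array ran from 1.6 to 1.66, and 46.8% of probe sets averaged below 1.5, where differences are compressed. Pearson correlations between arrays of a group, across all probe sets, ran from 0.9783 (control light replicates 1 and 3) to 0.9939. Of 22 marker genes for leaf mesophyll, phloem, xylem, epidermis, guard cells and root, 6 had a named probe set. The leaf mesophyll gene RCA, which encodes Rubisco activase, read high throughout (group means from 10.9 to 11.1 on the log2 scale), the phloem gene SWEET11 and the guard cell gene FMA stayed below 2 in every group mean, and no xylem or epidermis marker was named. In bulk petiole RNA, fewer cells of a type and less RNA per cell cannot be told apart.

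Both genes were lower in canopy petioles than in petioles of single plants, AT4G34950 by 4.19-fold and AT2G16660 by 6.06-fold. In the canopy AT4G34950 read 5.3, 4.68 and 5.87, against 7.61, 6.88 and 7.56 in single plants (log2 levels). Every canopy array lay below every single plant array, as did 9.98% of all probe sets. The group means were 5.28 ± 0.6 in the canopy and 7.35 ± 0.41 in single plants (SD, n = 3 each). The difference was -2.07 ± 0.34 (log2, limma SE).

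AT2G16660 read 2.49, 1.08 and 3.6 in the canopy, against 5.35, 4.23 and 5.39 in single plants (log2 levels). These groups did not overlap either, but the canopy arrays spread widely. Replicate 2, at 1.08, lay below 1.5, where a fold change is understated. The means were 2.39 ± 1.3 in the canopy and 4.99 ± 0.66 in single plants (SD, n = 3 each), and the difference was -2.6 ± 0.55 (log2, limma SE). It was -1.94 without canopy replicate 2 and -3.2 without canopy replicate 3, while AT4G34950 moved between -2.36 and -1.76 over all arrays left out in turn.

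**Figure D1:**
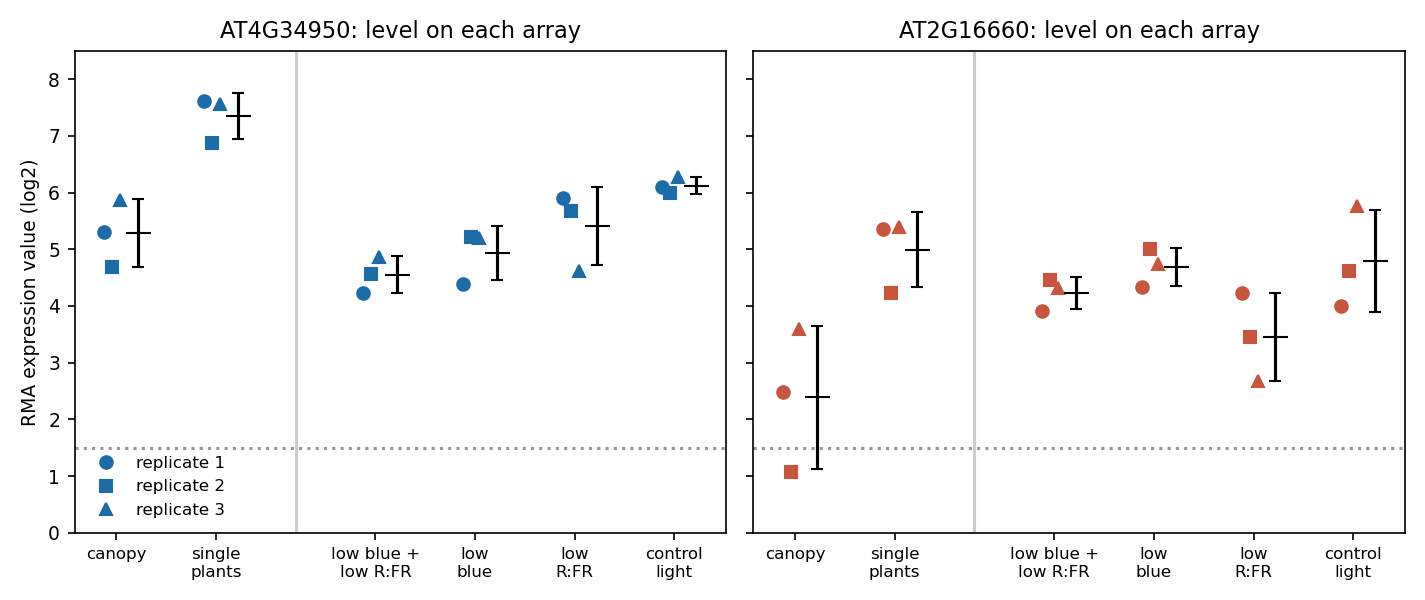
Level of AT4G34950 (left, blue) and AT2G16660 (right, red) on each of 18 arrays, as RMA expression values on the log2 scale, by group. Symbols mark replicate numbers, black bars give the mean ± SD of 3 arrays, the grey line parts the density from the light experiment and the dotted line marks 1.5. AT4G34950 ranges from 4.22 in combined light to 7.61 in single plants, AT2G16660 from 1.08 in the canopy to 5.76 in control light.

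Some markers of cell types differed with the canopy as well. The root marker PYK10, the 1 of 3 root markers with a named probe set, read 7.23 to 12.9 on a linear scale in canopy petioles and 1.61 to 6.22 in single plants. It rose by 1.69 (log2; limma adjusted p = 0.041), but averaged 1.52 in single plants, near the 1.5 level below which differences are compressed. The phloem marker SWEET11 (-0.02, limma adjusted p = 0.97) and the guard cell marker FMA (-0.24, adjusted p = 0.54) were not called. The summed linear level of the 3 leaf mesophyll genes named (RCA, LHCB4.3 and PORB, of 4 listed) ran from 1941 to 2094 in the canopy and from 2275 to 2510 in single plants. This sum is nearly all RCA, and the 3 genes did not move alike. LHCB4.3, of the light-harvesting antenna, fell by 1.42 in the canopy (log2; limma adjusted p = 6.7e-05). RCA differed by -0.19 (adjusted p = 0.35), and PORB, which makes a chlorophyll precursor, by -0.19 (adjusted p = 0.8). The part of these markers in the lower levels of both transporter genes was not tested.

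AT4G34950 was lower than in control light under each light treatment, with its lowest mean under the combined one. The combined contrast took part in the choice of this gene, and the combined arrays overlapped those of low blue and of low R:FR. AT2G16660 had its lowest mean of the light groups in low R:FR. Under the combined treatment AT4G34950 read 4.22, 4.57 and 4.87, in low blue 4.39, 5.21 and 5.2, and in low R:FR 5.91, 5.68 and 4.62, against 6.1, 5.99 and 6.28 in control light (log2 levels). All 3 treatments lay below control light on every array. Of all probe sets, 7.52% were lower without overlap in the combined treatment, 5.37% in low blue and 8.58% in low R:FR. The differences from control light were -1.57 ± 0.34 in the combined treatment, -1.19 ± 0.34 in low blue and -0.72 ± 0.34 in low R:FR (log2, limma SE). The low R:FR value rests much on replicate 3, at 4.62, and was -0.32 without it.

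AT2G16660 read 3.91, 4.46 and 4.31 under the combined treatment, 4.33, 5 and 4.74 in low blue and 4.22, 3.45 and 2.68 in low R:FR, against 4, 4.62 and 5.76 in control light (log2 levels). Each treatment overlapped control light, whose own arrays spanned more than those of any treatment. The light arrays took no part in the choice of this gene, so its light contrasts were tested with limma and Benjamini-Hochberg adjustment over all 22746 probe sets. Low R:FR differed from control light by -1.34 ± 0.55 (log2, limma SE; adjusted p = 0.33), where 0.866% of probe sets were called. Its 95% interval ran from -2.5 to -0.19. The 95% intervals given here are not adjusted for the number of probe sets. With an adjusted p over the threshold, no change is possible here, as are a small and a large decrease. The estimate was -0.86 without control light replicate 3 and -1.74 without control light replicate 1.

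In low blue AT2G16660 stood at -0.1 ± 0.55 against control light (log2, limma SE; adjusted p = 0.98, 95% interval -1.26 to 1.05), with 0.58% of probe sets called. The combined treatment gave -0.57 ± 0.55 (adjusted p = 0.77, 95% interval -1.72 to 0.59), with 2.26% called, and moved to -0.97 without control light replicate 1 and -0.083 without control light replicate 3. None of these 3 contrasts passed the threshold of an adjusted p of 0.05. The intervals are wide enough to hold changes of over 1 in either direction for low blue.

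Of the leaf mesophyll markers, LHCB4.3 and PORB had called changes under light treatments, in opposite directions in low blue, and RCA had none. LHCB4.3 fell by 1.07 in low blue (log2; limma adjusted p = 0.0045) and stood at -0.61 in the combined treatment (adjusted p = 0.054) and 0.27 in low R:FR (adjusted p = 0.54), each against control light. PORB rose by 1.04 in low blue (adjusted p = 0.042), fell by 1.11 in low R:FR (adjusted p = 0.018) and stood at -0.4 in the combined treatment (adjusted p = 0.48). The summed linear level of the 3 genes ran from 1944 to 2393 in the combined treatment, from 1955 to 2276 in low blue and from 2262 to 2448 in low R:FR, against 2102 to 2216 in control light. RCA, PYK10, SWEET11 and FMA were not called in these comparisons. The part of these markers in the light values of AT4G34950 and AT2G16660 was not tested.

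**Figure D2:**
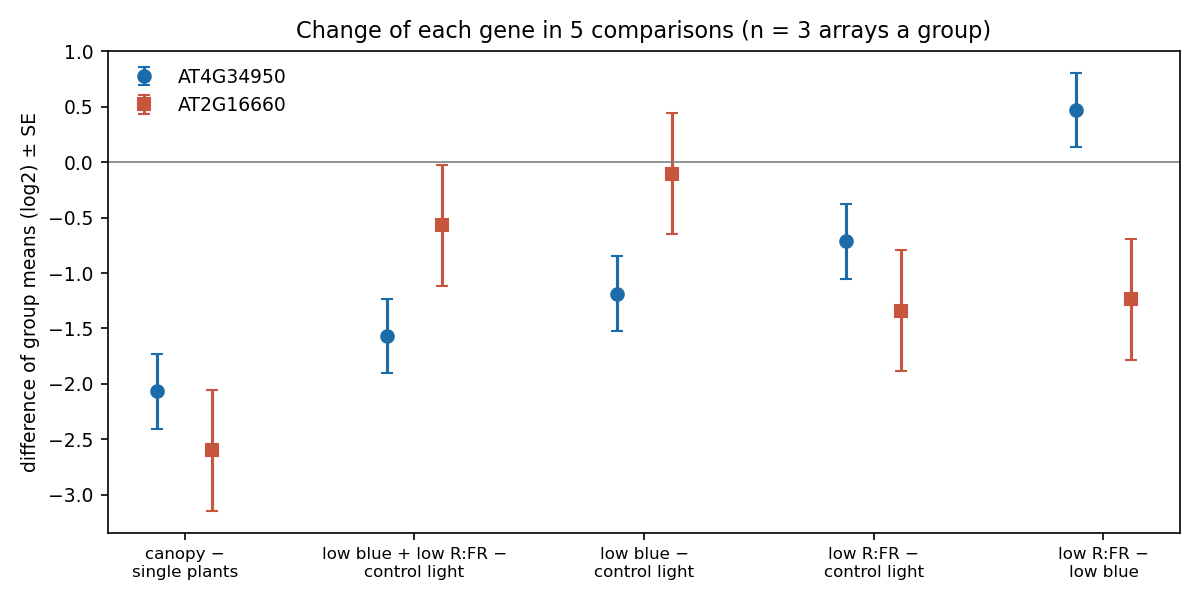
Difference between group means, on the log2 scale with limma's standard error, for AT4G34950 (blue circles) and AT2G16660 (red squares) in 5 comparisons of 3 arrays against 3. Both genes are lower in the canopy, by 2.07 and 2.6, and their estimates take opposite sides of 0 for low R:FR against low blue.

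The estimates of the genes took opposite signs when the single treatments were set against each other. Between the single treatments, all AT2G16660 arrays in low R:FR (2.68 to 4.22) lay below those in low blue (4.33 to 5, log2 levels), as did 11.6% of all probe sets. The limma difference was -1.24 ± 0.55 (adjusted p = 0.27), where 4.39% of probe sets were called. AT4G34950 took the other direction, with a difference of 0.47 ± 0.34 (log2, limma SE; adjusted p = 0.57, 95% interval -0.24 to 1.18) and groups that overlapped. That difference was 0.2 without low blue replicate 1 and 0.86 without low R:FR replicate 3. Neither gene passed the threshold.

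The unequal change can be read within each array as the log2 ratio of AT4G34950 to AT2G16660. The ratio also depends on how each probe set hybridises, so only its differences between groups are read. It ran from 1.69 to 2.23 in low R:FR and from 0.06 to 0.46 in low blue. The ratios averaged 1.95 ± 0.27 in low R:FR and 0.24 ± 0.2 in low blue (SD, n = 3 each), a difference of 1.71. That difference joins estimates of opposite sign, 0.47 for AT4G34950 and -1.24 for AT2G16660. The estimate of AT2G16660 was the larger in size, but neither was called and their sizes were not compared by a test. An exact two-sided permutation test gave p = 0.1, the smallest that 3 arrays against 3 allow. Any ratio without overlap between these groups gives that value, so the test could not pass the threshold. The ratio was chosen after its values were seen, and no conclusion is drawn from the test. How many other pairs of genes separate in this way was not counted. On combined arrays it ran from 0.11 to 0.56, overlapping low blue, and on control light arrays from 0.51 to 2.1. In the density experiment it ran from 2.27 to 3.6 in the canopy and from 2.17 to 2.65 in single plants, and these groups overlapped.

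Averaged over both blue levels, low R:FR gave AT2G16660 a difference of -0.9 ± 0.39 (log2, limma SE; adjusted p = 0.23), where 4.29% of probe sets were called. An exact two-sided permutation test within the blue levels, run on this gene alone, gave p = 0.025, and 0.05 after adjustment over the 2 light factors, which is not under the threshold. Averaged over both R:FR levels, low blue gave AT2G16660 0.34 ± 0.39 (limma adjusted p = 0.84), with 2.53% of probe sets called, and the exact permutation test gave p = 0.39. For AT4G34950, described only, the order of the estimates was turned: low blue averaged -1.02 ± 0.24 and low R:FR -0.55 ± 0.24 (log2, limma SE). The gap between the averages of a gene equals its difference between low R:FR and low blue given above. That difference was called for neither gene, so the turned order is no separate result.

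Adding the second light cue did not give a called change of AT2G16660. Combined light differed from low R:FR by 0.77 ± 0.55 (limma adjusted p = 0.83; 0.448% of probe sets called) and from low blue by -0.47 ± 0.55 (adjusted p = 0.84; 1.28% called). The interaction of the cues was 0.88 ± 0.77 for AT2G16660 (limma adjusted p = 1), and 0.39 without control light replicate 3 and 1.28 without control light replicate 1. By the same test 0 of 22746 probe sets showed an interaction, though 811 had an unadjusted p under 0.05. For AT4G34950, combined light stood at -0.85 ± 0.34 against low R:FR and -0.38 ± 0.34 against low blue, and its interaction estimate was 0.33 ± 0.48, again with no test.

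Ranked by group mean, AT4G34950 stood highest in single plants (7.35) and then in control light (6.12), low R:FR (5.41), the canopy (5.28), low blue (4.94) and combined light (4.55, log2 levels). The first steps, from single plants to control light and from control light to low R:FR, had no overlap of arrays, and each later neighbour overlapped the next. AT2G16660 followed another order, with single plants (4.99), control light (4.79), low blue (4.69), combined light (4.23), low R:FR (3.45) and the canopy (2.39). Every neighbour in that order overlapped the next. Canopy arrays of AT2G16660 lay below all arrays of single plants, control light, low blue and combined light, and overlapped only low R:FR.

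The untreated groups differed in age and experiment, which cannot be told apart. AT4G34950 was higher in single plants of 37 d than in control light at 29 d on every array, by 1.23 ± 0.34 (log2, limma SE), as were 6.96% of probe sets. AT2G16660 differed by 0.2 ± 0.55 and overlapped. The canopy difference minus the combined light difference was -2.03 ± 0.77 for AT2G16660 and -0.5 ± 0.48 for AT4G34950, with no test because the canopy contrast chose both genes.

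Both probe sets varied much between arrays of the same group. The residual SD of AT2G16660 was 0.78 on the log2 scale, and 0.31% of all probe sets had a higher one. For AT4G34950 it was 0.47, exceeded by 1.5% of probe sets, against a median of 0.157 over all. Among probe sets with a mean within 1 of their own, 0.92% and 3% had a higher residual SD.

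Within groups the genes deviated together. In the canopy, replicate 2 was low for both (-0.61 for AT4G34950 and -1.31 for AT2G16660 from the group mean) and replicate 3 was high for both (0.59 and 1.21). In low R:FR, replicate 1 was high (0.51 and 0.77) and replicate 3 low (-0.79 and -0.77). The deviations had the same sign on 17 of 18 arrays, the exception being low R:FR replicate 2, where AT2G16660 lay at its group mean. The same array was lowest for both genes in 5 of 6 groups and highest in 4 of 6. Of the 13285 named genes other than AT4G34950, 7 (0.0527%), AT2G16660 among them, shared its sign on at least 17 arrays, and the median gene did so on 9. These genes were not limited to those of like level or spread. The 3 deviations of a group sum to 0, so signs within a group are not independent, and this comparison was chosen after its values were seen.

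**Figure D3:**
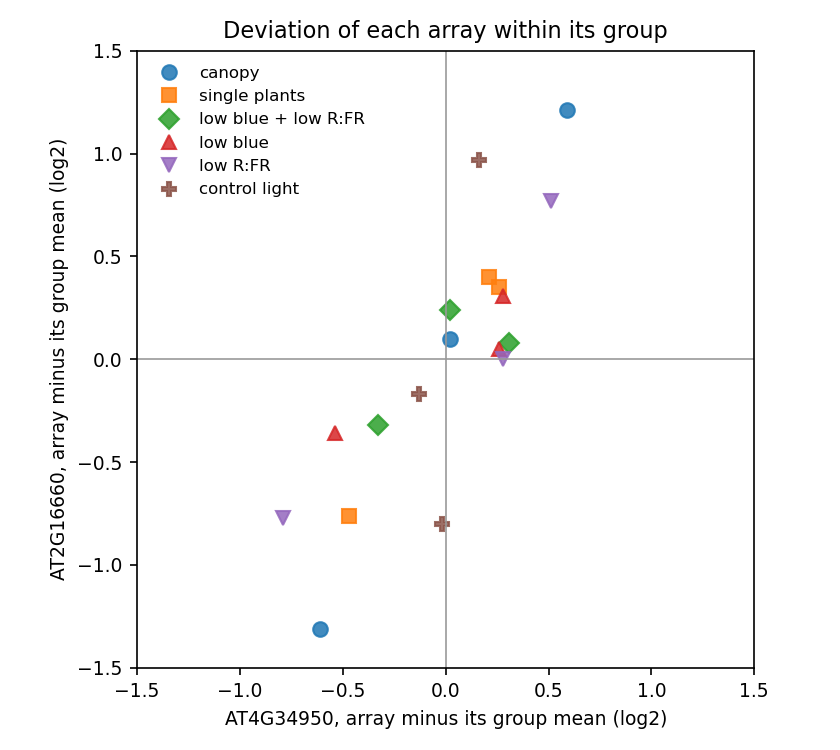
Deviation of each of 18 arrays from its group mean (log2), for AT4G34950 on the horizontal axis and AT2G16660 on the vertical axis, with a symbol for each group. On 17 arrays both deviations have the same sign, and the widest pairs are canopy replicates 2 and 3.

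Of 18 loci listed as nodulin-like major facilitator genes, 11 had a probe set of their own, 2 (AT5G50520 and AT5G50630) shared a probe set and were not used, and 5 had none named. Apart from the pair, 9 genes were thus measured. In the canopy 1 of the 9 rose, 0 fell and 8 were not called, against 2.11% of all probe sets called higher and 2.15% called lower. Their median difference was -0.065, with -0.0049 over all probe sets (log2). The riser was AT5G14120, which read 7.89, 8.09 and 7.67 in the canopy, against 6.8, 7.42 and 6.46 in single plants (log2 levels). It rose by 0.99 ± 0.21 (limma adjusted p = 0.011) without overlap, as 9.3% of probe sets were higher, where the pair was lower. Its call ended without single replicate 3 (0.073), without canopy replicate 2 (0.065) and when only the 6 density arrays were fitted (0.06).

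In low R:FR 2 of the 9 rose and 0 fell, against 0.62% of probe sets called higher and 0.246% called lower, with a median of 0.089 for the 9 and -0.011 over all. AT1G74780 read 2.7, 3.17 and 2.74 in low R:FR, against 2.25, 2.16 and 1.85 in control light, and rose by 0.78 ± 0.15 (log2; limma adjusted p = 0.02). AT4G19450 read 3.68, 3.74 and 3.49 in low R:FR, against 3.21, 3.08 and 2.59 in control light, and rose by 0.68 ± 0.15 (adjusted p = 0.046). Both were higher without overlap, as were 7.58% of probe sets, where AT4G34950 was lower. The call of AT1G74780 ended without control light replicate 2 (0.057) or 3 (0.13), without both 1 and 3 (0.3) and without low R:FR replicate 2 (0.13). The call of AT4G19450 held in only 4 of 18 leave-outs (without single replicate 2, canopy replicate 1 or 3, or control light replicate 1), with a highest adjusted p of 0.22 without control light replicate 3, and ended in 17 of all 26 alternatives.

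In low blue and in the combined treatment 0 of the 9 were called by limma, against 0.58% of all probe sets in low blue and 2.26% in the combined treatment. In each, 1 of the 9 had an unadjusted p under 0.05, as did 9.61% of all probe sets in low blue and 12.6% in the combined treatment. In low blue this was AT5G14120, at 7.56, 7.49 and 8.01 against 7.11, 6.95 and 6.47 in control light (log2 levels), a difference of 0.84 ± 0.21 (adjusted p = 0.093). In the combined treatment it was AT1G74780, with a difference of 0.39 ± 0.15 (adjusted p = 0.28). The medians of the 9 were 0.016 in low blue, with 0.0012 over all probe sets, and 0.14 in the combined treatment, with -0.0044 over all. AT2G39210 and AT1G80530, at group means between 4.19 and 4.51, and the dim AT3G01930, AT1G18940, AT2G30300 and AT3G01630 were called in none of these 4 comparisons.

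Between low R:FR and low blue, 2 of the 9 genes were higher and 1 was lower, against 2.26% and 2.13% of all probe sets. AT4G19450 was higher in low R:FR by 0.91 ± 0.15 (log2; limma adjusted p = 0.0016) and kept its call under all 26 alternatives tried, with adjusted p-values up to 0.013. AT1G74780 was higher by 0.6 ± 0.15 (adjusted p = 0.034). AT5G14120 was lower by 0.84 ± 0.21 (adjusted p = 0.029), as the estimate of AT2G16660 was. The calls of AT5G14120 and AT1G74780 ended in 5 and 4 of 18 leave-outs, with adjusted p-values up to 0.11 (without low blue replicate 3) and 0.19 (without low R:FR replicate 2). The AT1G74780 call also ended with an intensity trend (0.054) and when only the light arrays were fitted (0.053).

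Over both blue levels, low R:FR raised AT4G19450 by 0.53 ± 0.11 (limma adjusted p = 0.0089) and AT1G74780 by 0.49 ± 0.11 (adjusted p = 0.016), where 2.36% of probe sets were called higher. The AT1G74780 call ended without control light replicates 1 and 3 together (0.094). Over both R:FR levels, low blue raised AT5G14120 by 0.64 ± 0.15 (limma adjusted p = 0.029), where 1.26% of probe sets were called higher, a call that ended in 8 of 18 leave-outs with adjusted p-values up to 0.075 (without low R:FR replicate 1), and without control light replicates 1 and 3 together (0.13). No family gene had a called interaction by limma, as 0 of all probe sets did, and 1 of the 9 had an unadjusted p under 0.05, against 3.57% of all probe sets.

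**Figure D4:**
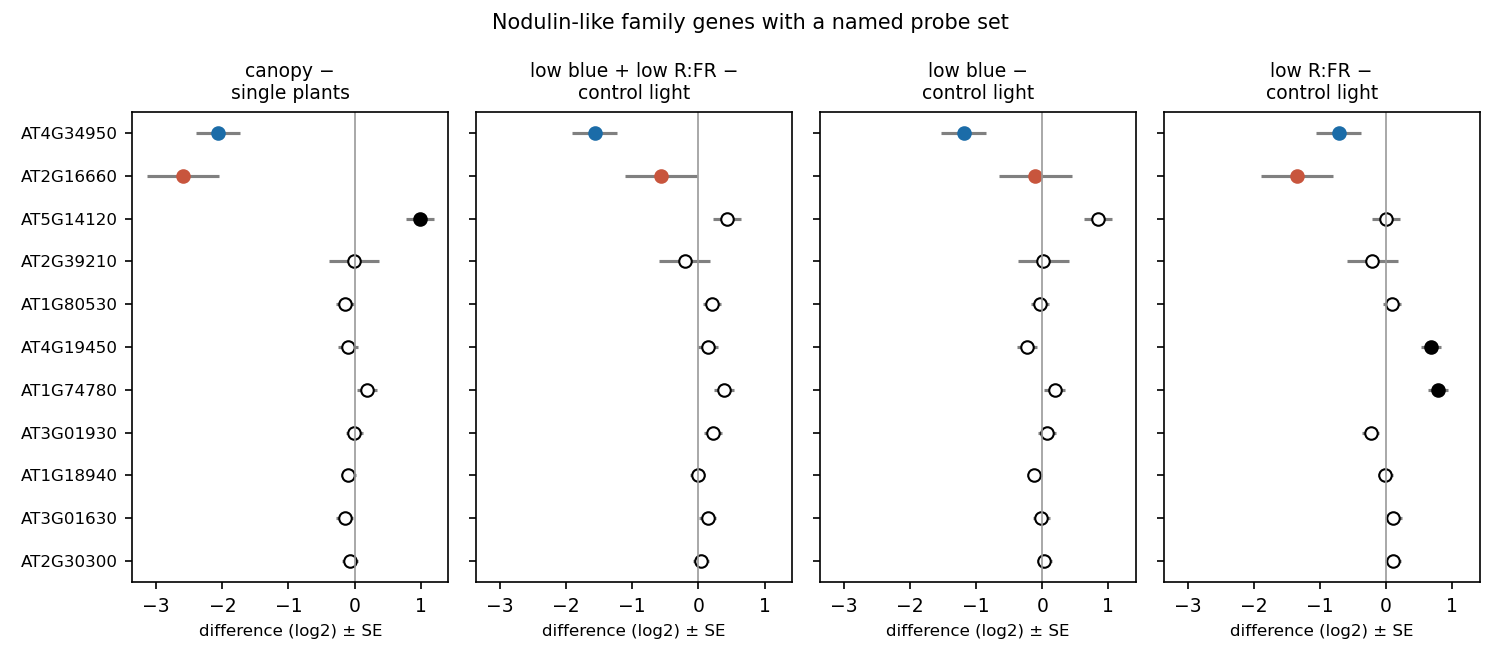
Difference of group means on the log2 scale, with limma's standard error, for the 11 nodulin-like family genes with a probe set of their own, in 4 comparisons of 3 arrays against 3. AT4G34950 (blue) and AT2G16660 (red) are drawn without regard to a test; among the other 9, filled points passed an adjusted p of 0.05 (AT5G14120 in the canopy, AT4G19450 and AT1G74780 in low R:FR) and open points did not.

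Genes of like pattern were ranked by the root mean square difference from each member over the 18 arrays, after each gene was centred on its own mean, so that a small value means similar changes of similar size. For AT4G34950 the 5 closest of 13285 genes were AT5G43150, AT4G36640, AT5G53420, CHX20 and EXPA4, at 0.52 to 0.53 on the log2 scale. CHX20 encodes a cation/proton exchanger and EXPA4 an expansin, which loosens cell walls. All 5 had lower means in the canopy (2.12 to 4.27) than in single plants (4.18 to 5.53), gene by gene. Their estimates in the combined treatment lay below 0, from -0.36 ± 0.2 for AT5G53420 to -1.38 ± 0.36 for CHX20. The 5 were picked for likeness over these same arrays, so shared directions follow from the choice and are description only.

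For AT2G16660 the closest were AT1G31550, AT1G13750, AT4G35750, the β-glucosidase gene BGLU44 and TRM24, at 0.71 to 0.77. They were picked in the same way, so directions shared with AT2G16660 follow from the choice as well. Their low R:FR estimates lay between -0.77 ± 0.4 (AT4G35750) and -0.44 ± 0.24 (AT1G13750), and their low blue estimates between -0.62 ± 0.35 (AT1G31550) and 0.025 ± 0.24 (TRM24). In the combined treatment their estimates ran from -1.29 ± 0.4 (AT4G35750) to -0.31 ± 0.24 (AT1G13750). AT1G31550, AT4G35750 and BGLU44 had their lowest mean of the light groups in the combined treatment, unlike AT2G16660. By this measure AT2G16660 ranked 11080 of 13285 for AT4G34950, and AT4G34950 ranked 1447 for AT2G16660, at a difference of 1.1, as large as the spread of either gene about its own mean (0.99 and 1.1). A gene with no change at all would stand at 0.99 from AT4G34950. Rank 11080 thus places nearly flat genes ahead of AT2G16660, and does not mean that their pattern is more alike. Pearson correlation, which leaves out the size of the changes, placed the pair closer, at 0.5, with AT2G16660 ranked 772 for AT4G34950 and AT4G34950 ranked 612 for AT2G16660. By this correlation over the 18 arrays, 2 of the 5 genes closest to AT4G34950 and 1 of the 5 closest to AT2G16660 were again among the first 5.

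**Figure D5:**
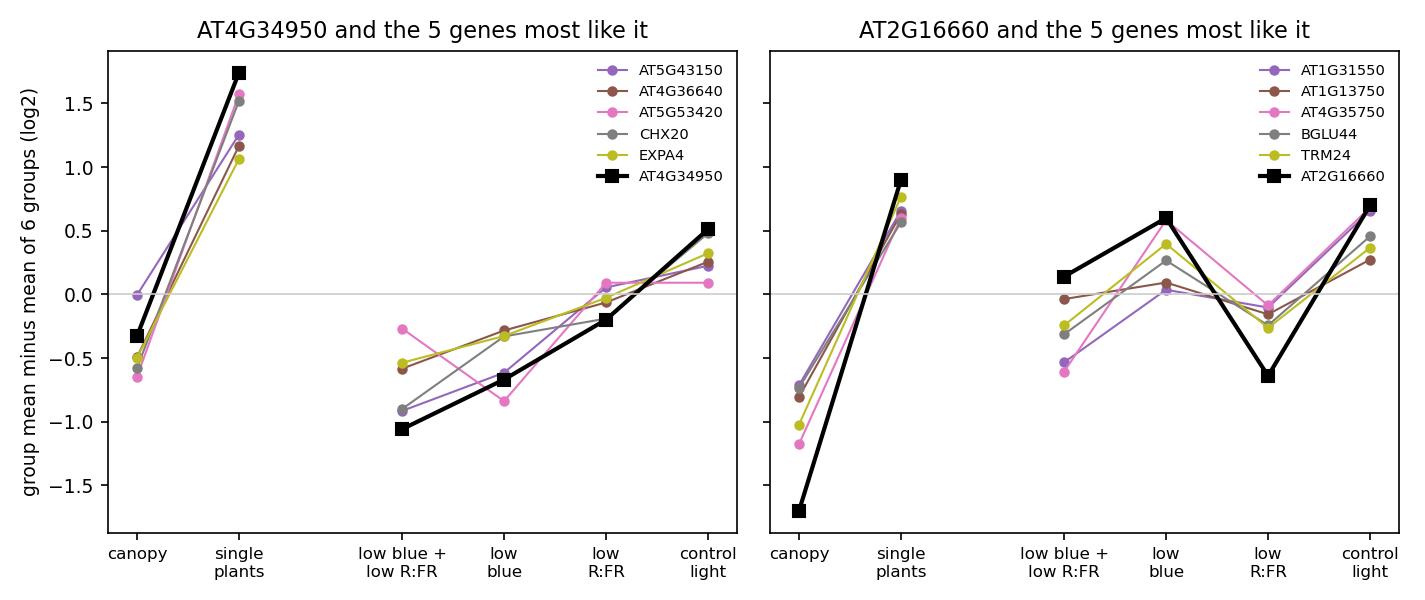
Group means minus the mean of the 6 groups (log2) for AT4G34950 (left) and AT2G16660 (right), in black squares, and for the 5 genes most like each, in coloured circles; lines join groups of the same experiment. AT4G34950 and its 5 lie lowest in combined or low blue light among the light groups, and AT2G16660 lies lowest in low R:FR among them.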

How the data were processed

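The authors deposited log2 expression values of 22810 probe sets on 18 arrays, made with RMA (background correction, normalization and summary of probes), which the submitters' processing notes name. The sources used here do not give its software or version, or say which arrays shared the normalization. The log base was checked on bacterial control transcripts: bioC, bioD and cre lay 2.01, 4.19 and 6.46 above bioB, against nominal log2 steps of 1.74, 4.06 and 6.06. No 2 arrays were identical (0 pairs), and the number of arrays limits the precision.

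Groups came from sample titles. One linear model with 6 group means was fitted over the 18 arrays (limma 3.58.1, R 4.3.3, eBayes with 12 residual and 4.41 prior degrees of freedom), over 22746 probe sets after 64 controls were set aside. Of these, 13513 had 1 gene in the platform annotation, 503 several and 8730 none listed, and loci and symbols were updated through the RefSeq table. P-values were two-sided and Benjamini-Hochberg adjusted over all probe sets within a comparison, with a call at an adjusted p under 0.05. Combined against control light was simulated over 22746 probe sets. Of 100 changes of 1 (log2) 91% were recovered, and of 100 changes of 2, 99%, while 8 unchanged probe sets were called. The changed probe sets were drawn at random, each with its own residual SD. The full change was added to dim probe sets too, where real differences are compressed, so these percentages may be too high. AT4G34950 and AT2G16660 had residual SDs of 0.47 and 0.78 against a median of 0.157, so changes of these sizes are harder to call for them.

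The members and lists were chosen with earlier results of these data known. The family and marker lists were written by locus from knowledge of the genes. Genes named were the pair, family genes with a named probe set, the 5 genes most like each member and the markers. Same-numbered arrays of compared groups had correlations of their deviations between -0.4 and 0.33 in the light experiment and between 0.062 and 0.33 in the density experiment. The numbers were not taken to pair samples. Differently numbered arrays were not compared, so this check cannot show that samples were unpaired. Promoter motifs and protein sequences were not analysed here. Alternatives were a replicate block, an intensity trend, array weights, median centring, quantile normalization, a filter at a mean of 2, a fit per experiment and arrays left out.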

Additional observations from a re-analysis of the deposited data

How the results depend on the processing

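Each of the 15 member results, 10 tested and 5 described, was recomputed under up to 27 alternatives, and 259 of 262 values of the tested results kept their direction and stayed short of the threshold. All 130 values of the described results, which have no test, kept their direction and moved by less than 1 SD of the more variable group. That limit could not be passed by leaving out 1 of 3 arrays of a group. The block, trend, filter and per-experiment fits returned the same estimates, so these counts say little about stability. The exceptions among the tested values were in the low blue difference of AT2G16660, near 0. It turned to 0.0686 without control light replicates 1 and 3 together and ran from -0.502 to 0.383 with single arrays left out. The replicate block, with numbers not taken to pair the arrays, left every call of a member and of the family as it was. With it AT2G16660 in low R:FR stood at -1.34 (limma adjusted p = 0.3). Counts of called family genes were small and unstable. In the canopy 1 gene was called, 0 when only the density arrays were fitted, and 0 to 1 with single arrays left out. In low R:FR 2 were called, 1 with an intensity trend, 1 when only the light arrays were fitted, 0 without control light replicates 1 and 3, and 0 to 2 with single arrays left out. In low blue the count was 0, and 0 to 1 with single arrays left out. The cause was not tested. Alternatives for single family genes and for the ratio of the pair were chosen after seeing the data. Averaging several probe sets of a gene was not run, since only 1 probe set of 1 gene is listed for each member. Over the 6 group means, 3 of the 5 genes most like AT4G34950 and 2 of the 5 most like AT2G16660 were again among the first 5. Levels near 1, such as AT2G16660 on canopy replicate 2, limit how far a decrease can be measured.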
